A study of Homo sapiens with 33 samples.

Results

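The NRF2 oxidative stress genes are a set of 9 genes of the antioxidant response, followed here in Karpas422 cells given EED226 or its solvent. The set holds NFE2L2, which encodes NRF2 itself, its repressor KEAP1, and the target genes NQO1, GCLM, GCLC, SLC7A11, TXNRD1, SRXN1 and HMOX1. All probe sets that the platform annotation gives to these genes were taken, which were 20 probe sets with 1 gene symbol out of 54613 measured, for 9 of 19775 genes. A further probe set, 1567014_s_at, is annotated to both NFE2L2 and CSNK2A1 and was kept apart: it read 7.10, 6.72 and 6.77 with EED226 on day 6 and 7.39, 7.07 and 6.47 with DMSO on day 6, with overlap. The genes were chosen partly on earlier results of the same arrays, in both of the contrasts described below, so their values in those contrasts are a description and carry no test.

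The 33 Affymetrix arrays formed 11 groups of 3: EED226 at 5 µM for 8 h, 1 day, 2 days, 3 days or 6 days, DMSO for the same times, and cells at 0 h. Karpas422 is a line from a human B cell lymphoma of the diffuse large type, which the series title calls EZH2 mutant, and every group is made of it. EED226 blocks PRC2, the Polycomb complex that methylates histone H3 at lysine 27, by binding the subunit EED. The labels do not say what the cells at 0 h had received. An EZH2 inhibitor is mentioned in the design text and EI1 in the protocols, while the titles of the treated samples name EED226, which set the groups here. The replicates are called biological triplicates, with no shared batch or day stated, and 1 cell line limits how far the values can be carried to other cells.

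NRF2 is a transcription factor that KEAP1, an adaptor of the CUL3 ubiquitin ligase, marks for degradation in unstressed cells. Oxidants and electrophiles modify KEAP1, NRF2 then accumulates, pairs with a small MAF protein and binds antioxidant response elements near genes for glutathione synthesis, thioredoxin reduction, NADPH supply and quinone and haem breakdown. BACH1 and BACH2 are repressors that pair with the same small MAF proteins and compete for these elements, and BACH2 is a regulator of B cell identity. Much of the control of NRF2 acts on the protein, which arrays of RNA do not measure.

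The promoter table of RefSeq on build GRCh38.p14 held 7 of the 9 genes in 10 windows, and HMOX1 and SLC7A11 had no entry in it. Each window ran from 250 bases before to 50 bases after a gene's annotated start. The letters TGACNNNGC, the core of the antioxidant response element, were searched on both strands and were found in 4 of the 10 windows, against 13.3% of 35116 windows in the table. The amino acid response element core TGATGCAA was found in none of the 10, against 0.866% of all windows. The bases before the start are shown for 1 gene that was lower with EED226 on day 6 and 1 that was higher, GCLM and GCLC, which encode the 2 subunits of a single enzyme, and for TXNRD1 and KEAP1. Capitals mark the matches to TGACNNNGC, and the sequences run 5′ to 3′ on the gene's strand.
GCLM: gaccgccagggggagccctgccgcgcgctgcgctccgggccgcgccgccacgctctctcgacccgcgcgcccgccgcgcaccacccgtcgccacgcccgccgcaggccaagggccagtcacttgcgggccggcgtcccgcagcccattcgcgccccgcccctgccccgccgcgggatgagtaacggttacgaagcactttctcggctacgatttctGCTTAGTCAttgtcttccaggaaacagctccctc
GCLC: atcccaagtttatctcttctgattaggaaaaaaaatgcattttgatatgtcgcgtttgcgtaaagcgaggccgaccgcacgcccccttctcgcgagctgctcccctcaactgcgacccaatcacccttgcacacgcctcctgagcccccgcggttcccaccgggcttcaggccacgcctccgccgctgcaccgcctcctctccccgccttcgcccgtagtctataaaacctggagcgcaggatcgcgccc
TXNRD1: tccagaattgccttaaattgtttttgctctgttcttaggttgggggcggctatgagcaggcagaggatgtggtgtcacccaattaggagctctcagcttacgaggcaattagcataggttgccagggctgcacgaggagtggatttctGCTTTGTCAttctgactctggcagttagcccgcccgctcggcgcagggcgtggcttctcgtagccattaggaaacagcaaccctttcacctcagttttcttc
KEAP1: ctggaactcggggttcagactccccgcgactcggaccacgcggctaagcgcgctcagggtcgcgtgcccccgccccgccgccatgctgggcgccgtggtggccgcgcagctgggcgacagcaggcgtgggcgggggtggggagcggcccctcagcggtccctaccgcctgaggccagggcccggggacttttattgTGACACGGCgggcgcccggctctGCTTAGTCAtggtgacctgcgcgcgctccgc

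The GCLM sequence lies at chr1:93909431-93909680 on the minus strand, and its only match begins 34 bases before the start, on the opposite strand. The GCLC sequence, chr6:53545102-53545351 on the minus strand, holds no match in the window. The TXNRD1 sequence lies at chr12:104286782-104287031 on the plus strand, before the second of 2 annotated starts, with a match that begins 102 bases before it on the opposite strand. The window of the other TXNRD1 start held 2 matches. The KEAP1 sequence, chr19:10502772-10503021 on the minus strand, holds a match that begins 54 bases before the start on the gene's strand and one that begins 31 bases before it on the opposite strand. The window of the other KEAP1 start, and those of NQO1, SRXN1 and NFE2L2, held none. These are matches of letters and show no binding. Bases outside the windows were not searched, so a window with no match does not show that a gene lacks the element.

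Values are the deposited log2 expression values, and a difference of 1 log2 unit is a 2-fold change. Each gene is described by the probe set with its highest average across the arrays, called the brightest, with the others beside it. Differences come from a limma fit to all probe sets and arrays, and the threshold is a Benjamini-Hochberg adjusted p under 0.05. In bulk RNA, fewer cells that express a gene and less RNA per cell cannot be told apart. The B cell markers MS4A1, PAX5 and CD79B were bright, with medians of 12.5, 11.5 and 10.5 over the arrays. The 5 B cell markers analysed had summed levels of 13.85 to 13.96 on the EED226 arrays on day 6 and 13.28 to 13.52 on the DMSO arrays, on the log2 scale. Of the T and NK cell markers CD3D and CD3G were bright, with medians of 8.86 and 10.4, while CD2 and NKG7 had medians of 3.03 and 2.88. The summed level of that list of 5 was 10.15 to 10.29 with EED226 and 10.55 to 10.83 with DMSO. Of the 7 monocyte and macrophage markers, LYZ was 2.28 log2 units higher with EED226 on day 6 and reached 5.70. The other 6 had medians of 2.46 to 4.16. Their differences from DMSO on day 6 were -0.50 for ITGAM, -0.39 for CD163, -0.29 for MARCO, -0.27 for CD14, -0.15 for CSF1R and 0.12 for FCGR1A. Those of ITGAM and CD163 passed the threshold. The sums of the list were 6.65 to 6.90 with EED226 and 6.43 to 6.52 with DMSO on day 6.

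On DMSO day 6 array 3 the 75th percentile was 6.10, the lowest of the 33 arrays, and its correlations with the other 2 arrays of its group were 0.986 and 0.987, while within other groups r was 0.994 or more. The 3′ minus 5′ difference of the ACTB control probe sets was 3.50 to 4.14 on the EED226 arrays on day 6 and 2.87 to 3.29 on the DMSO arrays on day 6, and that of GAPDH was 0.524 to 0.737 with EED226 and 0.235 to 0.285 with DMSO. On day 3 ACTB was at 3.26 to 3.74 with EED226 and 3.05 to 3.16 with DMSO, GAPDH at 0.303 to 0.435 with EED226 and 0.231 to 0.245 with DMSO, and the B cell sum at 13.61 to 13.76 with EED226 and 13.40 to 13.47 with DMSO. On day 2 GAPDH was at 0.281 to 0.366 with EED226 and 0.238 to 0.264 with DMSO, and the B cell sum at 13.41 to 13.53 with EED226 and 13.22 to 13.39 with DMSO. The monocyte and macrophage sum was 6.50 to 6.61 with EED226 and 6.35 to 6.48 with DMSO on day 3. The part of these RNA quality values and marker sums in the results on days 2, 3 and 6 was not tested.

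NFE2L2, the gene of the factor itself, was nearly level in every group by its brightest probe set. Its brightest probe set, 201146_at, read 10.30, 10.16 and 10.35 with EED226 on day 6 and 10.40, 10.37 and 10.58 with DMSO on day 6, and 10.33, 10.14 and 10.39 at 0 h. The EED226 values lay below the DMSO values by a small gap and within the range at 0 h. The difference from DMSO was -0.18 ± 0.09 log2 units (SE, n = 3), or -0.12 without DMSO day 6 array 3, and did not pass the threshold. It passed in 2 of 14 alternative fits. Its 11 group means spanned 0.188 log2 units, less than those of any other member's brightest probe set. The 2 further NFE2L2 probe sets, 1567013_at and 1567015_at, were dim, with means over all arrays of 4.21 and 3.60, against a median of 4.09 over all probe sets. On day 6, 1567013_at was -0.43 ± 0.19 log2 units from DMSO, with every EED226 array below every DMSO array. On day 3 it was -0.54 ± 0.19 with overlap, and neither difference passed the threshold. The difference of 1567015_at on day 6 was -0.07 ± 0.15.

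KEAP1, measured by the single probe set 202417_at, was lower late in EED226. On day 6 it read 8.39, 8.39 and 8.51 with EED226 and 9.12, 9.13 and 8.87 with DMSO, and at 0 h 9.42, 9.24 and 9.29. All 3 EED226 values lay below all DMSO values, and the DMSO values lay below all those at 0 h. The difference was -0.61 ± 0.09 log2 units (SE, n = 3) on day 6, which passed the threshold. On day 3 it was -0.22 ± 0.09, with 8.92, 9.03 and 8.84 in EED226 overlapping 9.27, 9.18 and 9.01 in DMSO, and it did not pass.

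**Figure D1:**
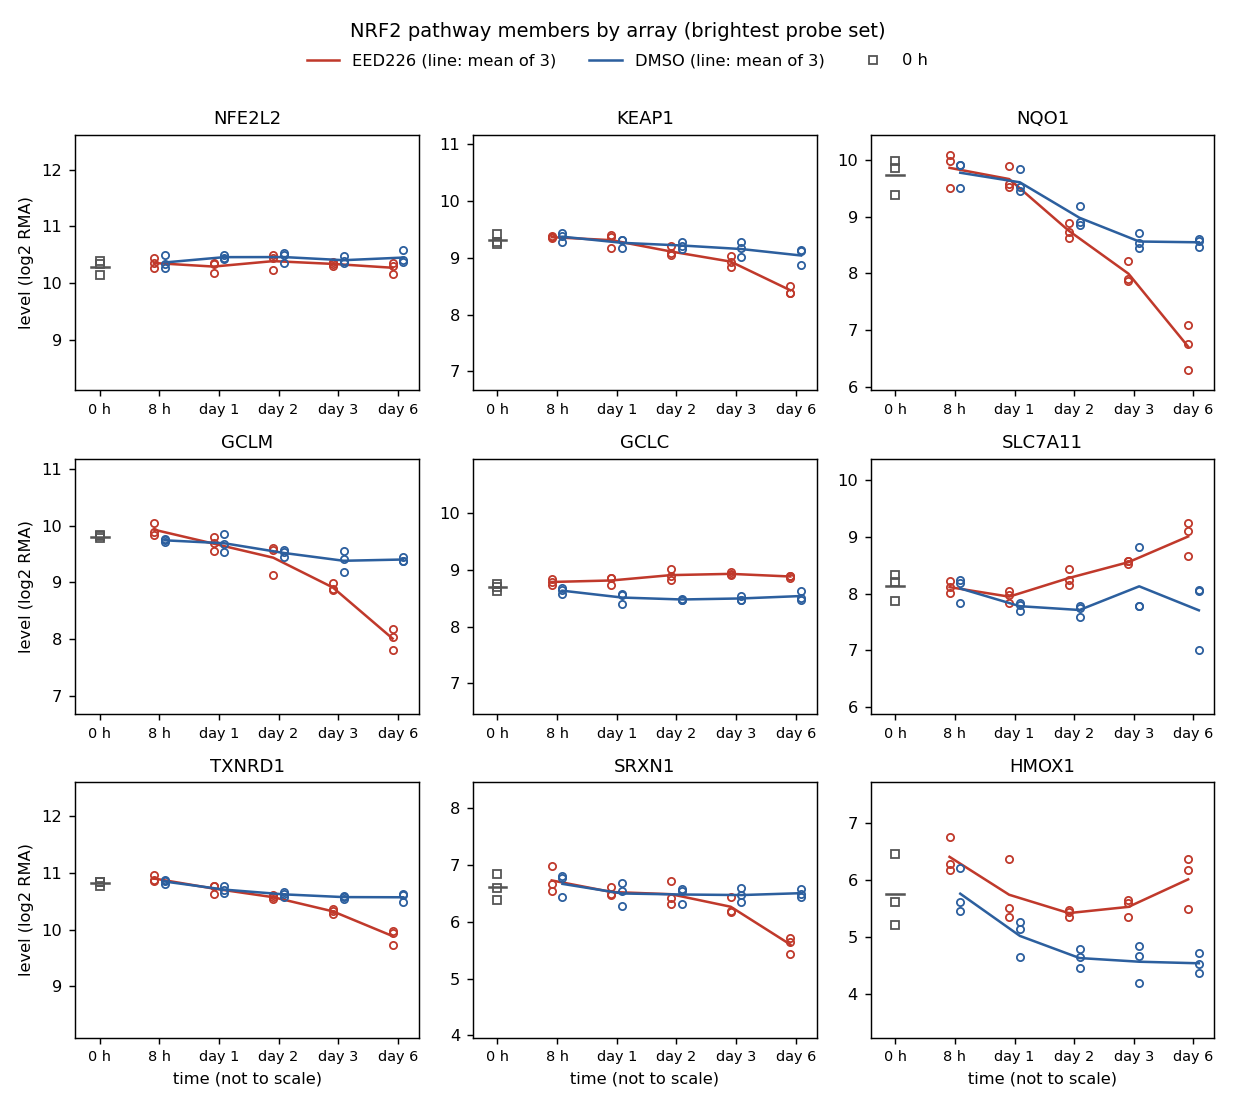
Level (log2 RMA value) of the brightest probe set of each of the 9 genes by time, with 1 point per array, for EED226 (red) and DMSO (blue, lines through the means of 3) and 0 h (squares, bar at the mean). NQO1, GCLM, TXNRD1, SRXN1 and KEAP1 separate downwards from DMSO by day 6, HMOX1, GCLC and SLC7A11 lie above it, and NFE2L2 stays between 10.14 and 10.58. Every panel spans the same number of log2 units.

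NQO1, the quinone reductase often used as a readout of NRF2, had the widest range of the members. With EED226 its brightest probe set, 210519_s_at, read 8.63, 8.89 and 8.73 on day 2, 7.86, 8.22 and 7.90 on day 3 and 6.30, 6.75 and 7.09 on day 6. With DMSO it read 8.91, 9.19 and 8.85 on day 2, 8.53, 8.72 and 8.44 on day 3 and 8.60, 8.58 and 8.47 on day 6, and at 0 h 9.86, 9.39 and 9.98. The groups overlapped on day 2 by 1 array, and from day 3 on every EED226 array lay below every DMSO array. Both lay below 0 h from day 2 on. The difference from DMSO was -0.57 ± 0.18 log2 units (SE, n = 3) on day 3 and -1.84 ± 0.18 on day 6. Both passed the threshold, and that on day 3 lost it in 4 of 15 alternative fits, those without DMSO day 3 array 1 or 2 or EED226 day 3 array 1 or 3. The other NQO1 probe sets, 201468_s_at and 201467_s_at, were -1.18 ± 0.12 and -1.84 ± 0.19 log2 units from DMSO on day 6.

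The enzyme that limits glutathione synthesis, glutamate-cysteine ligase, has a catalytic subunit encoded by GCLC and a modifier subunit encoded by GCLM that lowers its feedback inhibition. The genes of these subunits parted under EED226. GCLM, probe set 203925_at, read 8.997, 8.86 and 8.88 with EED226 on day 3 and 7.81, 8.04 and 8.19 on day 6, against 9.42, 9.55 and 9.18 with DMSO on day 3 and 9.38, 9.39 and 9.45 on day 6. EED226 values lay below DMSO values at both times, by the wider gap on day 6. The differences were -0.47 ± 0.11 log2 units (SE, n = 3) on day 3 and -1.39 ± 0.11 on day 6, and both passed the threshold. The 2 other GCLM probe sets gave -1.23 ± 0.17 and -1.07 ± 0.12 on day 6.

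GCLC, probe set 202923_s_at, read 8.81, 8.90 and 9.01 with EED226 on day 2, 8.96, 8.92 and 8.91 on day 3 and 8.89, 8.90 and 8.86 on day 6. With DMSO it read 8.47, 8.47 and 8.49 on day 2, 8.48, 8.48 and 8.54 on day 3 and 8.51, 8.48 and 8.63 on day 6, and at 0 h 8.63, 8.74 and 8.70. Every EED226 array lay above every DMSO array at each of the 5 times, and the 0 h values lay between the groups on days 2 and 3. The difference was 0.15 ± 0.07 log2 units (SE, n = 3) at 8 h, 0.30 ± 0.07 on day 1, 0.43 ± 0.07 on day 2, 0.43 ± 0.07 on day 3 and 0.34 ± 0.07 on day 6, and it passed the threshold on days 2, 3 and 6 and, with the replicate number as a block, on day 1. Probe set 202922_at gave 0.54 ± 0.10 on day 2 and 0.61 ± 0.10 on day 6, while 1555330_at, with a mean of 3.22, is dim and gave 0.23 ± 0.15 on day 6. GCLC was the only member past the threshold on day 2.

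SLC7A11 encodes the light chain of the cystine importer, which supplies cysteine for glutathione, and it is a target of ATF4 as well as of NRF2. Its brightest probe set, 209921_at, read 8.57, 8.52 and 8.57 with EED226 on day 3 and 9.11, 9.25 and 8.66 on day 6. With DMSO it read 7.78, 7.78 and 8.82 on day 3 and 8.04, 8.07 and 7.004 on day 6, and at 0 h 8.19, 8.33 and 7.87. DMSO array 3 stood above the EED226 arrays on day 3 and far below the other DMSO arrays on day 6. On day 6 all EED226 values lay above all DMSO and 0 h values, with a difference from DMSO of 1.30 ± 0.23 log2 units (SE, n = 3) that passed the threshold, and 0.95 without DMSO day 6 array 3. On day 3 the difference was 0.43 ± 0.23 and did not pass; without DMSO day 3 array 3 it was 0.77 and did. Probe set 217678_at gave 1.43 ± 0.20 and the dimmer 207528_s_at gave 0.68 ± 0.24 on day 6, and on day 3, 207528_s_at had the opposite sign, -0.15 ± 0.24.

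DMSO day 3 array 3 was also high in other genes of the cystine and ATF4 list, which were looked at after the SLC7A11 values had been seen. ASNS, asparagine synthetase, read 12.28 on it and 10.58 and 10.68 on the other DMSO arrays on day 3. CHAC1, which degrades glutathione, read 7.61 against 4.63 and 4.81, DDIT3 read 9.86 against 8.24 and 8.09, and CTH, which makes cysteine from cystathionine, read 9.40 against 8.03 and 8.03. ATF4 itself read 12.52 against 11.66 and 11.63. The SLC7A11 value of this array thus moved with these genes, and what set the array apart was not tested.

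TXNRD1, the cytosolic thioredoxin reductase, and SRXN1, the sulfiredoxin that restores overoxidised peroxiredoxins, were both lower on day 6. TXNRD1, probe set 201266_at, read 9.94, 9.98 and 9.73 with EED226 and 10.62, 10.61 and 10.48 with DMSO on day 6, and 10.84, 10.83 and 10.77 at 0 h. The 3 groups did not overlap, with EED226 lowest and 0 h highest. The difference from DMSO was -0.68 ± 0.07 log2 units (SE, n = 3) on day 6 and -0.25 ± 0.07 on day 3; both passed the threshold, and the call on day 3 was lost with the mean of the probe sets, with only the 6 arrays compared and without EED226 day 3 array 3. With the mean of its probe sets the difference on day 6 was -0.32, as the other one, 1561080_at, had a mean of 2.06 over all arrays, near the lowest on the arrays.

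SRXN1, measured by 225252_at alone, read 5.44, 5.64 and 5.72 with EED226 and 6.45, 6.50 and 6.57 with DMSO on day 6, and 6.39, 6.59 and 6.85 at 0 h. The DMSO values lay within the 0 h range and the EED226 values clearly below both. The difference from DMSO was -0.91 ± 0.13 log2 units (SE, n = 3) and passed the threshold, while on day 3 it was -0.21 ± 0.13 with overlapping arrays and did not.

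HMOX1, the inducible haem oxygenase, scattered widely between replicates. Probe set 203665_at, the only one for the gene, read 5.34, 5.64 and 5.60 with EED226 on day 3 and 5.50, 6.18 and 6.36 on day 6. With DMSO it read 4.19, 4.84 and 4.66 on day 3 and 4.53, 4.71 and 4.36 on day 6, and at 0 h 5.20, 6.45 and 5.60. EED226 arrays lay above DMSO arrays without overlap on days 1, 2, 3 and 6, and on day 6 they lay within the range at 0 h. The difference from DMSO was 0.65 ± 0.27 log2 units (SE, n = 3) at 8 h, 0.73 on day 1, 0.79 on day 2, 0.97 on day 3 and 1.48 on day 6, each with an SE of 0.27. It passed the threshold on days 3 and 6, and the call on day 3 was lost in 3 of 15 alternatives, without DMSO day 3 array 1, EED226 day 3 array 2 or EED226 day 3 array 3.

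**Figure D2:**
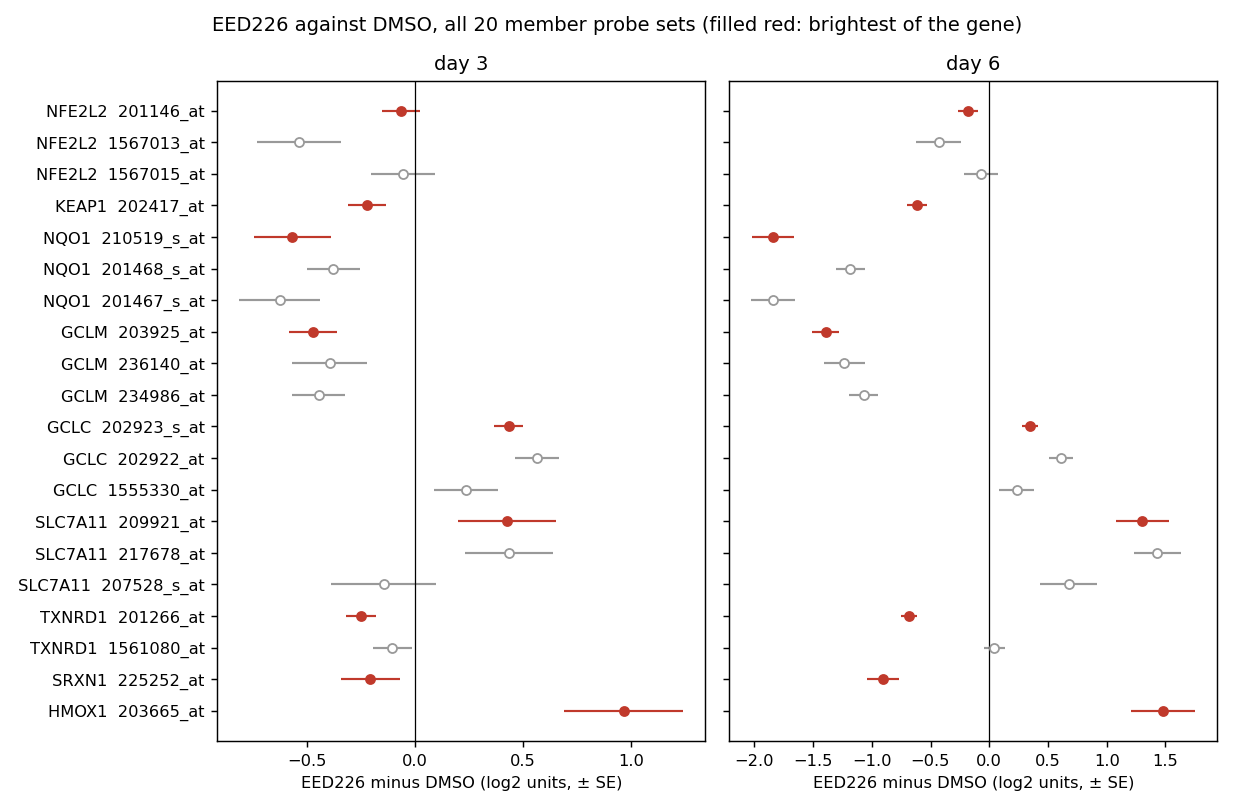
Difference of EED226 from DMSO (log2 units, points with SE bars from limma) on days 3 and 6 for all 20 probe sets of the 9 genes, with the brightest of each gene filled. On day 6 the 3 NQO1 and 3 GCLM sets lie between -1.84 and -1.07, while HMOX1 and the SLC7A11 sets lie between 0.68 and 1.48. The horizontal scales of the panels differ.

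Over the 20 probe sets, 0 were past the threshold for EED226 against DMSO at 8 h with limma (2 had an unadjusted p under 0.05), where 0.0% of all probe sets were. On day 1 it was 0 (3 at an unadjusted p under 0.05), against 0.236% of all, and 1, of GCLC, with the replicate number as a block. On day 2, 2 were higher, against 3.58% of all probe sets. On day 3, 3 were higher and 6 lower, against 7.32% and 7.13%, and on day 6, 6 were higher and 9 lower, against 20.2% and 20.6%. On day 6 the arrays of the groups did not overlap for 17 of the 20, with 6 higher and 11 lower, against 20.6% and 23.1% of all probe sets, and the median difference was -0.31 log2 units beside -0.08 over all probe sets. Since the genes were chosen with these contrasts known, nothing is read from these counts.

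The DMSO arrays are the reference of EED226 and were in turn set against 0 h, so the contrasts share arrays. HMOX1 and NQO1 had the largest differences of the members in this second contrast from day 2 on. HMOX1 read 4.65, 4.79 and 4.44 with DMSO on day 2, against 5.20, 6.45 and 5.60 at 0 h, and all of its DMSO arrays on days 2, 3 and 6 lay below the 0 h arrays. Its difference from 0 h was -0.74 ± 0.27 log2 units (SE, n = 3) on day 1, -1.13 on day 2, -1.19 on day 3 and -1.22 on day 6. The last 2 passed the threshold. Each lost it in 4 alternatives: with only the 6 arrays compared, without 0 h array 2, which had the highest HMOX1 value at 0 h, and without DMSO array 1 or 3 of its time.

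NQO1 was -0.13 ± 0.18 log2 units (SE, n = 3) from 0 h with DMSO on day 1, -0.76 on day 2, -1.18 on day 3 and -1.19 on day 6. Its DMSO values changed little between days 3 and 6. Those on days 3 and 6 passed the threshold; the call on day 6 was lost with only the 6 arrays compared. GCLM was -0.42 ± 0.11 on day 3, past the threshold but not in 8 of 15 alternatives, among them those without any 1 of the 0 h arrays or without DMSO day 3 array 1 or 3, and -0.40 ± 0.11 on day 6, which did not pass.

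The remaining members differed less from 0 h. On day 6 with DMSO, KEAP1 was -0.27 ± 0.09, TXNRD1 -0.25 ± 0.07, GCLC -0.15 ± 0.07, SRXN1 -0.11 ± 0.13 and SLC7A11 -0.43 ± 0.23 log2 units from 0 h, and NFE2L2 was 0.16 ± 0.09 (SE, n = 3). None of these passed the threshold. Without DMSO day 6 array 3 the SLC7A11 difference was -0.08 and that of NFE2L2 0.10. Over the whole set the sign was negative for 8 of the 9 genes on days 1, 2, 3 and 6, NFE2L2 being the exception. These times share the same 0 h arrays. SLC7A11 was only -0.006 on day 3, and its sign turned in 5 of 15 alternatives. That of SRXN1 turned in 2 of 15 on day 1 and 2 of 14 on day 6, and that of KEAP1 in 1 of 15 on day 1. The median difference over all genes was 0.004 on day 1 and -0.019 on day 6, and nothing is read from the signs.

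Of the 20 probe sets, 0 were past the threshold for DMSO against 0 h at 8 h (limma; 0 also at an unadjusted p under 0.05), with 0.0% of all probe sets, and 0 on day 1 (4 at an unadjusted p under 0.05), with 0.0916%. There was 1 lower on day 2, NQO1 201468_s_at, with 0.0769% of all probe sets lower, 5 lower on day 3, with 0.478%, and 4 lower on day 6, with 0.372%. None was higher. On days 2, 3 and 6 the DMSO arrays of 10 of the 20 probe sets lay wholly below the 0 h arrays, against 7.3%, 8.7% and 7.95% of all probe sets at these times. Those of none lay wholly above, against 7.84%, 9.65% and 4.37% of all. Nothing is read from these counts either.

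**Figure D3:**
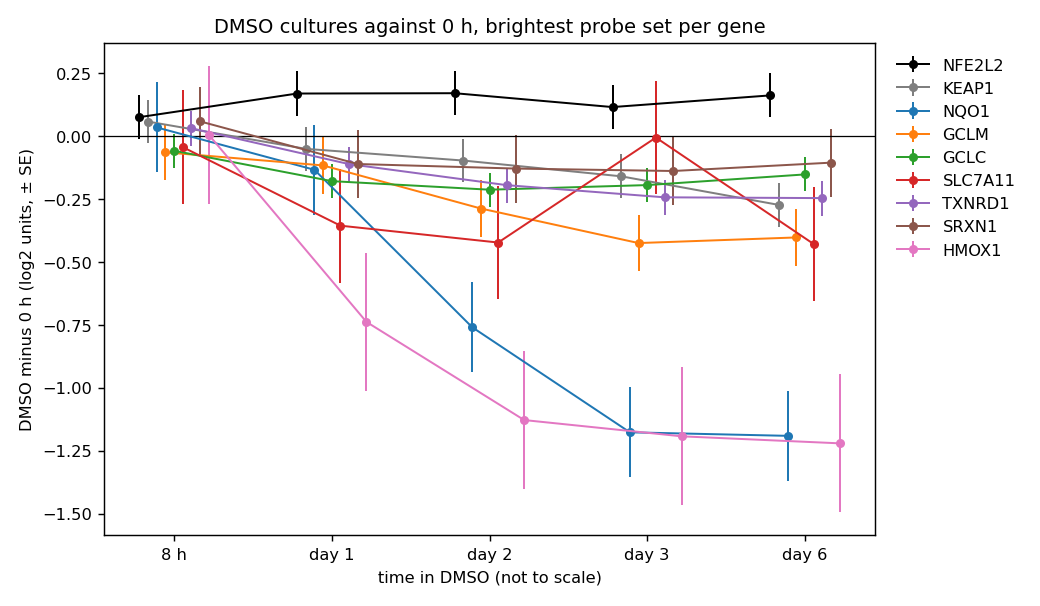
Difference of DMSO from 0 h (log2 units, mean of 3 arrays against mean of 3, SE bars from limma) by time, for the brightest probe set of each gene. HMOX1 and NQO1 reach about -1.2 by day 3 and stay there on day 6, GCLM ends near -0.4, SLC7A11 ends at -0.43 (-0.08 without DMSO day 6 array 3), and NFE2L2 alone lies above 0 from day 1 on.

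Seen beside 0 h, EED226 and DMSO placed the members differently. On day 6 NQO1 averaged 6.71 ± 0.40 with EED226 and 8.55 ± 0.07 with DMSO, and 9.74 ± 0.31 at 0 h (SD, n = 3 each). For NQO1, GCLM, TXNRD1, SRXN1 and KEAP1 the EED226 mean was the farthest below 0 h, with DMSO between. HMOX1 averaged 6.01 ± 0.46 with EED226 and 4.53 ± 0.18 with DMSO, beside 5.75 ± 0.64 at 0 h (SD, n = 3 each), so that the DMSO group stood apart from 0 h by more than the EED226 group did. SLC7A11 averaged 9.005 ± 0.31 with EED226 and 7.70 ± 0.61 with DMSO, beside 8.13 ± 0.24 at 0 h (SD, n = 3 each). Only DMSO array 3 lay below the 0 h range, and the other DMSO arrays lay within it.

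The members that were lower and those that were higher with EED226 on day 6 were compared by their group means. Over the 11 group means, which share the cell line, the normalization and the passage of time, the 10 pairs among NQO1, GCLM, TXNRD1, SRXN1 and KEAP1 had Pearson correlations of 0.916 to 0.992, and of 0.848 to 0.981 over the 10 means without EED226 on day 6. The 3 pairs among HMOX1, GCLC and SLC7A11 had 0.547 to 0.736, and 0.488 to 0.765 without that group. The 15 pairs between these sets had -0.792 to 0.105, and -0.428 to 0.571 without it, which overlaps the range of the pairs among HMOX1, GCLC and SLC7A11. The sets were formed by the direction on day 6. Outside the members, and among 12153 genes at or above the median level, NQO1's group means were most like those of VCP (r = 0.997), TRAPPC2L (0.992) and DPH6 (0.991). Those of GCLM were most like PRDX4 (0.997), CCNE1 (0.995) and PINX1 (0.993), and those of HMOX1 most like PDLIM2 (0.919), TMEM129 (0.901) and APH1A (0.897).

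The other genes of the pathway were followed in 8 lists, of which 92 of 98 genes were analysed. Each was taken by its brightest probe set from the same fit. For EED226 on day 6, 2 of the 4 other GSK3B probe sets passed the threshold with the opposite sign. So did the 1 other TXNRD2 probe set and 1 of the 2 other ATF3 probe sets. The lists, too, were chosen with earlier results of these arrays known. Genes named from them were in part picked by the smallest p in these contrasts. The counts and p values below are thus a description and carry no test. With EED226, 0 of 92 passed at 8 h (limma; 1 at an unadjusted p under 0.05), with 0.0% of all genes. On day 1 only GLRX, a glutaredoxin, rose, by 0.82 ± 0.13 log2 units (SE, n = 3, limma adjusted p = 0.0018), with 0.496% of all genes higher, and 2 genes passed with the replicate number as a block. On day 2, 16 rose and 1 fell, against 5.72% and 1.47% of all genes; on day 3, 17 rose and 19 fell, against 10.6% and 9.59%; and on day 6, 23 rose and 35 fell, against 23.1% and 25.5%.

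Among the regulators, 5 of 12 rose and 2 fell on day 6, against 23.1% and 25.5% of all genes. Nothing is read from the counts of this list or of the lists below. BACH2 read 9.998, 10.37 and 9.82 with EED226 and 5.45, 5.74 and 5.29 with DMSO on day 6, and 5.56, 5.48 and 5.40 at 0 h, so that the DMSO arrays lay near those of 0 h and the EED226 arrays far above. It rose by 4.57 ± 0.18 log2 units (SE, n = 3, limma adjusted p = 1.89e-17), and by 2.61 on day 3 and 1.19 on day 2. BACH1 rose by 1.53 ± 0.11 (adjusted p = 6.27e-12) with the brightest probe set, while both of its other probe sets had the opposite sign without passing.

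**Figure D4:**
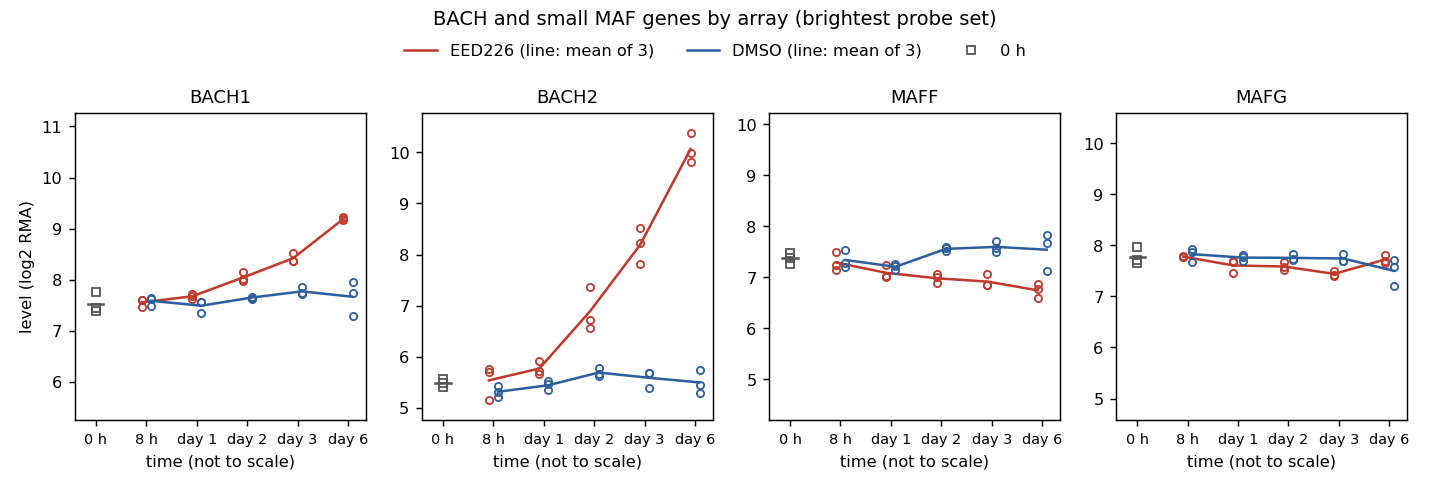
Level (log2 RMA value) of the BACH and small MAF genes by time, 1 point per array, for EED226 (red), DMSO (blue, lines through the means of 3) and 0 h (squares). BACH2 with EED226 lies above DMSO from day 1 on and reaches 9.82 to 10.37 on day 6, and MAFF with EED226 lies below DMSO from day 2 on. The panels span the same number of log2 units.

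MAFF, a small MAF partner, fell by 0.58 log2 units on day 2, 0.68 on day 3 and 0.79 on day 6 (limma adjusted p = 8.17e-06 on day 6). MAFG was -0.30 ± 0.10 on day 3 (SE, n = 3, limma adjusted p = 0.0461), a call lost in 8 of 15 alternatives, among them those without any 1 of the 6 arrays, and 0.22 ± 0.10 on day 6, which did not pass (adjusted p = 0.0867), or 0.07 without DMSO day 6 array 3. CUL3, the scaffold of the KEAP1 ligase, was -0.15 ± 0.07 on day 6 (limma adjusted p = 0.0816), and -0.18 with an adjusted p of 0.0485 without that array. Of the 2 other CUL3 probe sets, 1 had the opposite sign without passing. SQSTM1, an autophagy receptor that can sequester KEAP1, rose by 0.58 ± 0.15 (adjusted p = 0.0025), while 2 of the 4 further probe sets had the opposite sign, and the call was lost with the mean of the probe sets and with only the 6 arrays compared. Without DMSO day 6 array 3 the SQSTM1 difference was 0.29 (limma adjusted p = 0.0457). NFE2L1, a relative of NRF2 that answers proteasome stress, rose by 0.69 ± 0.11 (adjusted p = 3.31e-06).

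In the glutathione list 6 of 22 rose and 8 fell on day 6, against 23.1% and 25.5% of all genes. GLRX rose by 2.75 ± 0.13 log2 units (SE, n = 3), at 9.44, 9.50 and 9.41 with EED226 and 6.82, 6.79 and 6.50 with DMSO, and was higher on days 1, 2, 3 and 6. GLRX2, its mitochondrial relative, fell by 1.25, GGCT, which breaks down gamma-glutamyl peptides, fell by 1.03, and GSR, which regenerates reduced glutathione, fell by 0.67 (limma adjusted p = 6.58e-08 for GSR). In the thioredoxin and peroxiredoxin list 6 of 13 rose and 5 fell, against the same shares of all genes. SESN3 rose by 3.23 ± 0.18, SESN1, also a sestrin, by 2.12 ± 0.13 and TXNIP, which binds and inhibits thioredoxin, by 1.76 ± 0.12, while TXN, thioredoxin, fell by 0.44 ± 0.08 (limma adjusted p = 2.03e-05). Of the 6 other SESN3 probe sets, 1 had the opposite sign without passing.

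Of the 8 genes of NADPH supply 2 rose and 3 fell on day 6, against 23.1% and 25.5% of all genes. The pentose phosphate enzymes TKT and PGD fell by 1.57 ± 0.07 and 1.47 ± 0.12 log2 units (SE, n = 3), and RPIA rose by 0.35 ± 0.06 (limma adjusted p = 2.64e-05). Of the 2 other PGD probe sets, 1 had the opposite sign without passing. In the haem and iron list 2 of 10 rose and 3 fell, against the same shares of all genes. BLVRB, a biliverdin reductase, rose by 1.39 ± 0.12, HMOX2, the constitutive haem oxygenase, fell by 0.68 ± 0.09, and TFRC, the transferrin receptor, fell by 0.58 ± 0.07 (adjusted p = 1.23e-07). Among the 4 other TFRC probe sets, 1 had the opposite sign without passing. HMOX2 and HMOX1 thus had differences of opposite sign.

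In the detoxification list 7 of 15 fell and none rose on day 6, against 25.5% and 23.1% of all genes. UGDH, which makes the sugar donor of glucuronidation, fell by 0.74 ± 0.08 log2 units (SE, n = 3), NQO2, a relative of NQO1, by 0.58 ± 0.09 and ABCC4, an export pump, by 0.57 ± 0.08 (limma adjusted p = 1.05e-06). Of the superoxide and peroxide enzymes CAT, catalase, rose by 0.68 ± 0.06, SOD2 fell by 0.79 ± 0.13, and SOD1 was -0.14 ± 0.06 (limma adjusted p = 0.0457), a call lost in 9 of 14 alternatives, among them those without any 1 of the 6 arrays.

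Of the 9 genes of cystine supply and ATF4 targets 1 rose and 5 fell on day 6, while the member SLC7A11 was higher. Of all genes 23.1% were higher and 25.5% lower. SLC3A2, the heavy chain that SLC7A11 needs at the membrane, was -0.40 ± 0.14 log2 units on day 6 (SE, n = 3, limma adjusted p = 0.0269). Its arrays overlapped, at 7.37, 7.61 and 7.58 with EED226 and 8.03, 8.11 and 7.61 with DMSO, and the call was lost with only the 6 arrays compared and without DMSO day 6 array 1 or 2 or EED226 day 6 array 1. TRIB3 fell by 0.76 ± 0.15 and ATF4 by 0.48 ± 0.13, and DDIT3, a stress transcription factor, rose by 0.92 ± 0.23 (limma adjusted p = 0.0023). On day 3, 5 genes of the list fell, with 9.59% of all genes lower. That count rests in part on DMSO day 3 array 3. DDIT3 was -0.70 with that array and -0.14 without it, and SLC3A2 -0.49 and -0.34, and neither passed without it. DDIT3 also lost its call without any 1 of the EED226 day 3 arrays, and SLC3A2 without EED226 day 3 array 3. ASNS was -0.97 and -0.42, ATF4 -0.54 and -0.26 and TRIB3 -0.67 and -0.38, and these 3 passed both ways (limma, largest adjusted p without it 0.0436).

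**Figure D5:**
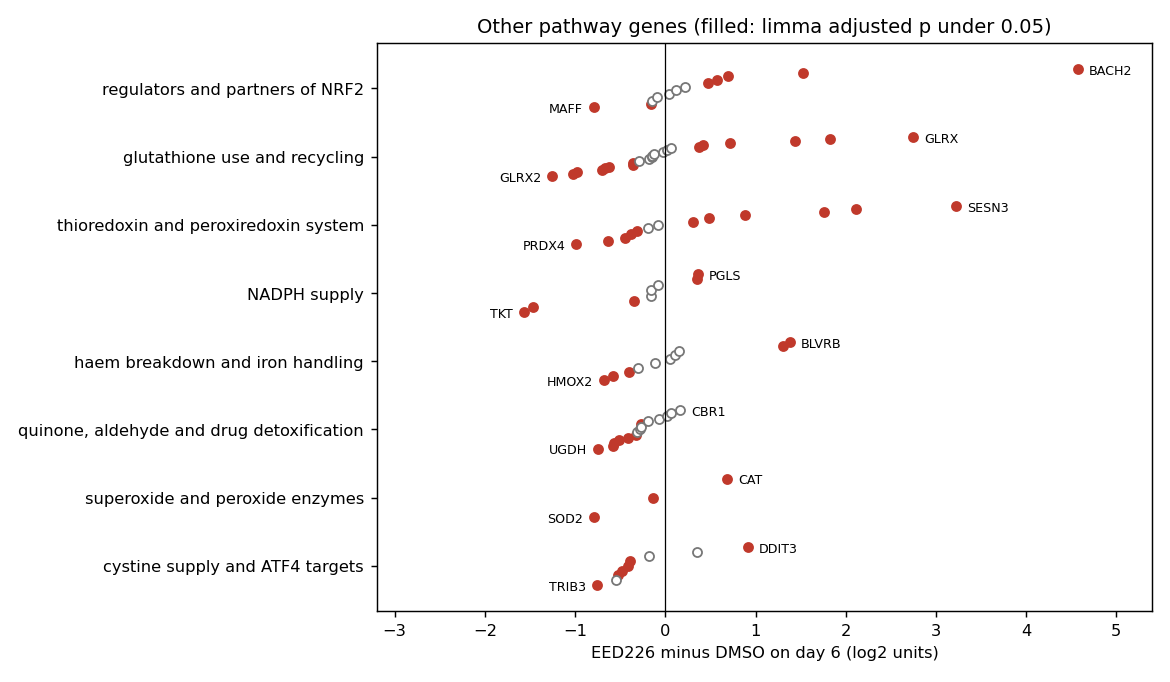
Difference of EED226 from DMSO on day 6 (log2 units) for the 92 measured genes of the 8 pathway lists, 1 point per gene, filled where the limma adjusted p is under 0.05; the genes at the ends of each list are named. BACH2, SESN3 and GLRX lie farthest to the right, and TKT farthest to the left.

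With DMSO against 0 h few of these genes moved. None of 92 passed at 8 h (limma; 1 at an unadjusted p under 0.05), on day 1 (3) or on day 2 (8), with 0.0%, 0.121% and 0.556% of all genes. On day 3, 4 passed, with 2.17% of all genes: IDH1, an NADPH-making isocitrate dehydrogenase, and CTH rose by 0.56 and 0.75 log2 units, and GPX7 and GSTM3 fell by 0.42 and 0.54. CTH was 0.30 without DMSO day 3 array 3 and did not pass, nor did it without any 1 of the 0 h arrays. GSTM3 lost its call in 8 of 14 alternatives, among them those without any 1 of the 6 arrays. On day 6 IDH1 rose by 0.55 ± 0.10 (SE, n = 3, limma adjusted p = 0.0023) and GPX7 fell by 0.39 ± 0.08 (adjusted p = 0.0202), with 1.11% of all genes, and the GPX7 call was lost in 5 of 14 alternatives, among them those without 0 h array 1 or 2 or without DMSO day 6 array 3. CTH, GSTM3, ASNS and CHAC1 were named after their values had been seen. No regulator passed in this contrast at any time.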

How the data were processed

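Karpas422 RNA was extracted with TRIZOL, labelled with a 3' IVT kit and hybridized to Affymetrix expression arrays, as the labels' protocols state. RMA, named in the submitters' processing notes, gave the log2 values that the authors deposited, and its version is not given in the sources used here. The number of arrays limits the precision.

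The table held 54675 probe sets, of which 62 controls were left out. Symbols came from GEO's platform annotation, updated by Entrez ID to RefSeq (GRCh38.p14): 41091 probe sets had 1 symbol, 1801 several and 11721 were unnamed here. Array medians lay between 4.06 and 4.18. Differences were fitted with limma 3.58.1 (lmFit, eBayes) in R 4.3.3, two-sided, with 1 mean per group over 33 arrays, 22 residual degrees of freedom and Benjamini-Hochberg adjustment over 54613 probe sets. No filter on dim probe sets was used. The procedure was tested on simulated data with independent noise and few shifted probe sets. Far more passed here on day 6, so the simulation says little about that time. Values with ± are SD for levels and SE for differences.

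The members and gene lists were chosen with earlier results of these data known. The rule for named genes took every member, the BACH and small MAF genes, CUL3, SQSTM1, SLC3A2, TXN and GSR, and from each list up to 3 genes with the smallest p for EED226 on day 6 and 2 for DMSO on day 6, among genes that passed without overlap. For likeness, the 3 members with the widest range of group means were used. Alternatives were median centring, renewed quantile normalization, only probe sets above the median level, a replicate block, a trended robust eBayes, 1 probe set or the mean of the probe sets per gene, only the 6 arrays compared, and leaving out each array.

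To check the replicate numbers, each array's deviations from its group's mean were correlated between arrays of equal number. Every pair exceeded 0.1 for EED226 against DMSO at 8 h (0.167 to 0.332), on day 1 (0.175 to 0.373) and on day 2 (0.141 to 0.194), so the numbers were taken to pair the arrays there, from the data and not the labels. They did not on day 3 (lowest 0.0126), on day 6 (lowest 0.0683) or for DMSO against 0 h (lowest -0.183). The main fit used no pairing at any time, also at 8 h and on days 1 and 2. In the replicate block, 1 effect per replicate number was shared by all 33 arrays. It thus also covered groups where the check found no pairing, and is not a paired fit of these 3 times.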

Additional observations from a re-analysis of the deposited data

Results flagged for a closer look

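GCLM, the modifier subunit of glutamate-cysteine ligase, differed from DMSO in opposite directions at different times of EED226 treatment. Its difference was 0.19 log2 units at 8 h, where every EED226 array lay above every DMSO array, and -0.47 on day 3 and -1.39 on day 6, where every EED226 array lay below. The change of direction was not tested. At 8 h the difference did not pass the threshold, and the 2 other GCLM probe sets gave 0.15 and 0.03 with overlapping arrays. Of all 54613 probe sets, 1510 had every EED226 array above every DMSO array at 8 h. Every EED226 array lay below for 9268 on day 3 and 12631 on day 6.

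MAFF, a small MAF partner of NRF2, differed from 0 h in opposite directions with DMSO. It was -0.17 log2 units on day 1, with every DMSO array below the 0 h arrays, and 0.18 on day 2 and 0.22 on day 3, with every DMSO array above. None of the 3 passed the threshold and the change of direction was not tested. Of all 54613 probe sets, 3197 had every DMSO array below the 0 h arrays on day 1. Every DMSO array lay above for 4279 on day 2 and 5268 on day 3, so such gaps were common.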

How the results depend on the processing

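Of the differences of the 9 members under all alternatives, 1313 moved by less than the spread between replicates and 19 moved by more. None that had passed the threshold changed sign. Only median centring, renewed quantile normalization and the mean of the probe sets could move a difference by more than this spread. Leaving out 1 array of 3 cannot, and the remaining alternatives do not change a brightest probe set's difference. The 1313 therefore says little about how stable the differences are. The counts that changed by more than 1.5 times were as follows, and their causes were not tested beyond what each alternative changes. For EED226 against DMSO, member probe sets past the threshold on day 1 were 1 in place of 0 with only probe sets above the median level, with the replicate block, with the trended robust eBayes and in a fit without DMSO day 6 array 3, which was chosen after seeing the data. Other pathway genes on day 1 were 2 in place of 1 with the replicate block and with the average of the probe sets of a gene. Member probe sets on day 2 were 5 in place of 2 with only the 6 arrays compared, and leaving out 1 array gave 3 to 13 member probe sets on day 3 (3 without EED226 day 3 array 3, 5 without DMSO day 3 array 1 or 2) and 11 to 15 other pathway genes on day 2 (11 without DMSO day 2 array 3). For DMSO against 0 h, member probe sets on day 1 were 1 with the replicate block and the trended robust eBayes, and 0 to 1 without 1 array (1 without DMSO day 1 array 2). On day 2 they were 4 in place of 1 with renewed quantile normalization and above the median level, 3 with the replicate block and without DMSO day 6 array 3, and 1 to 3 without 1 array (2 without 0 h array 1, 3 without 0 h array 2). On day 3 they were 3 in place of 5 with only the 6 arrays compared and 3 to 5 without 1 array (3 without 0 h array 2 or DMSO day 3 array 1 or 3), and on day 6, 1 in place of 4 with only the 6 arrays. Other pathway genes on day 2 were 1 in place of 0 with renewed quantile normalization, above the median level, with 1 probe set per gene, with the mean of the probe sets and without DMSO day 6 array 3, and 2 with the replicate block and the trended robust eBayes. On day 3 they were 0 in place of 4 with only the 6 arrays and 2 to 3 without 1 array (2 without any 1 of the 0 h arrays or without DMSO day 3 array 3). On day 6 they were 1 in place of 2 with medians centred, 6 above the median level and with the replicate block, 5 with the trended robust eBayes, 0 with only the 6 arrays and 1 to 6 without 1 array (1 without 0 h array 1 or 2 or DMSO day 6 array 3, 6 without DMSO day 6 array 2). The replicate block moved no other count by over 1.5 times. The shares of all probe sets and genes past the threshold under these alternatives are not given here. Whether a count moved apart from them cannot be told, and nothing is read from these counts. Counts of member probe sets were not made with 1 probe set per gene or the mean of the probe sets. Dim probe sets carry little signal over background, and their differences are uncertain.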
